A study of Mus musculus with 5 samples.

Results

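Total bone marrow collected 11 days after irradiation (11 DAI) was compared with total bone marrow collected 3 days after irradiation (3 DAI), directly and without the sham-irradiated marrow as a go-between. Both groups were BALB/c males aged 7 to 8 weeks that had received a single 4 Gy dose of gamma-rays to the whole body. The labels set them apart by the time of collection alone. Differences between animals, handling or array runs cannot be told apart from time here. Whole marrow cells of both tibias were taken. Each time was profiled on 1 array, so 2 of the 5 arrays of the series enter the comparison, and the arrays at 0 DAI (sham), 7 DAI and 21 DAI are used only to say which of the 2 times stands apart. Marrow of 6 to 8 mice was collected at each time, and the sources do not settle whether an array holds the RNA of 1 animal or a pool. How much animals of 1 time differ cannot be read from these arrays, and every difference given below is between 2 arrays and is called by its size alone.

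The array was a bead array with 1 normalized signal intensity for each probe. A gene was represented by the probe with its highest mean signal over the 5 arrays, and signals under 64 were set to 64. The log2 ratio of 11 DAI over 3 DAI was taken for the 8479 of 19057 genes with at least 1 of the 2 signals above that floor, so a positive ratio stands for a higher signal at 11 DAI. For 7556 genes both signals were above the floor. In the other 923 genes 1 signal was under it, and their ratio is a bound, written below as "at least" or "at most". The signals of 1 array lay on a common scale, with 29.8% to 30.5% of probes above 64 on every array, and the median ratio over all 8479 genes was 0.0017.

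Bone marrow holds the blood-forming cells together with the stroma that houses them. Radiation kills dividing precursors and lymphocytes first, and the space that they leave is refilled over the following weeks by surviving progenitors, with B lymphocytes returning through a fixed series of precursor stages. Interferons are secreted proteins that switch on a shared set of antiviral and antigen-presentation genes through STAT and IRF transcription factors bound to short promoter elements. Macrophages, osteoclasts, megakaryocytes, fat cells and matrix-producing stromal cells resist radiation better than lymphocytes and erythroid precursors do. Genes of marrow blood cells were abundant on both arrays, with the granule gene Ngp at 46339 at 11 DAI and 47153 at 3 DAI and the globin gene Hbb-bs at 44705 at 11 DAI and 43988 at 3 DAI, while 4 of 15 skeletal muscle genes and no cartilage gene had a ratio. In RNA of whole marrow, fewer cells of a type and less RNA per cell cannot be told apart.

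At a size of 2-fold or more, 443 genes (5.22% of those with a ratio) were higher and 518 genes (6.11%) were lower at 11 DAI, together 11.3%. The 5.22% and 6.11% are the background for the counts of list members below. Counts of members highest or lowest of the 5 times at 1 array have no such background. Their share over all genes was not worked out. At 3 DAI, 18 of 37 DNA replication and mitosis genes (none called) and 34 of 68 respiratory chain genes (1 called) were highest. Over all 8479 genes, the 11 DAI signal lay at least 2-fold above sham, 7 and 21 DAI in 172 and below them in 174. For the 3 DAI signal these numbers were 216 and 92. The higher genes were led by B lymphocyte genes and interferon-stimulated genes. Genes of extracellular matrix, macrophages and inflammatory cytokines led the lower ones, with some genes of bone-resorbing osteoclasts and of platelets. Of the 961 genes, 258 belong to at least 1 of 49 lists of cell type and function genes. The share of list members among all genes with a ratio was not worked out, so 258 cannot be read as many or few. Against sham, 931 genes were called at 11 DAI and 826 at 3 DAI, more than at 7 DAI (619) or 21 DAI (518). The 2 times were not the most unlike pair, since 1249 genes were called between 11 and 7 DAI and 1118 between 7 and 3 DAI.

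**Figure D1:**
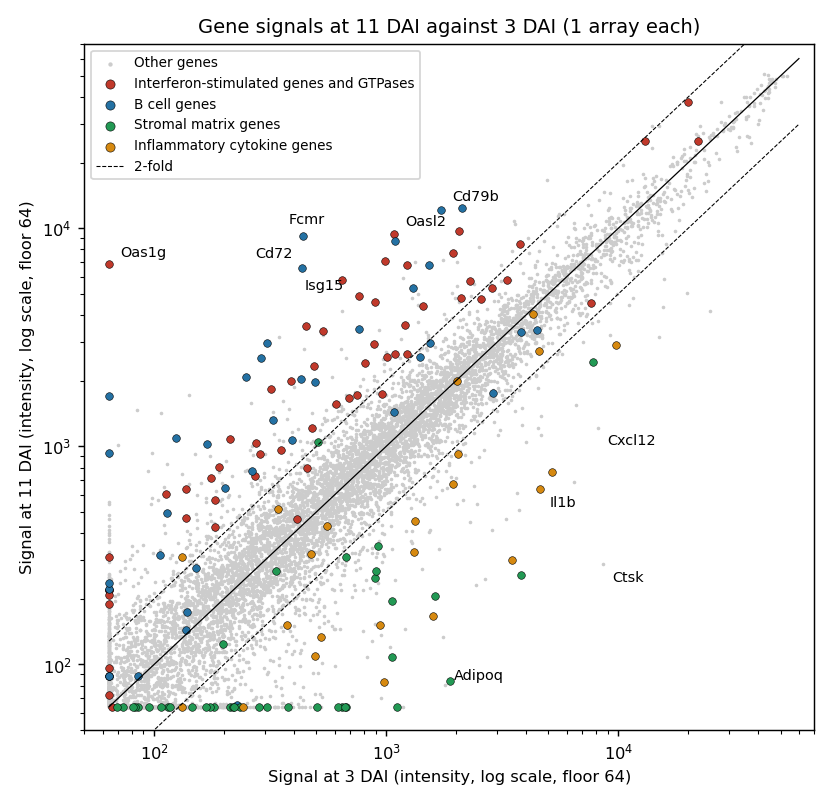
Signal of each gene with a ratio at 11 DAI (vertical axis) against its signal at 3 DAI (horizontal axis), normalized intensity on log axes with signals under 64 drawn at 64, 1 array each. Most interferon-stimulated genes and many B cell genes lie above the upper 2-fold line, and most stromal matrix genes lie below the lower line or at the floor of the vertical axis.

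Probes of 1 gene give the one spread that these files hold, and it is a spread within arrays and not between animals. In the 2490 genes with at least 2 probes above the floor on both arrays, the ratios of the probes had a median SD of 0.20 on the log2 scale, with an upper decile of 0.50. Among the 169 called genes with such probes, every other probe was called the same way in 98. Another probe was within 2-fold in 71 genes. In 1 gene, Ifngr2, which encodes a chain of the interferon gamma receptor, 1 probe was called higher (1.12) and another lower (-1.14), so no direction is given for it, although its brightest probe counts it among the 443.

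The promoter windows of the RefSeq table (build GRCm38.p6, 250 bases before to 50 after the start) were searched for the core of the interferon-stimulated response element, GAAA and GAAA with any 2 bases between them, on either strand. The element binds the STAT and IRF proteins that interferon activates, and a window was found for 6969 of the 8479 genes. It stood in 45 of 354 windows (12.7%) of the higher genes and in 13 of 400 windows (3.25%) of the lower genes, against 277 of 6969 windows (3.97%) of all genes with a ratio and 1079 of all 27025 RefSeq promoters (3.99%). Windows of interferon-inducible GTPase genes held it in 9 of 10, those of the antiviral list in 16 of 37 and those of MHC class I genes in 4 of 16. A match is a description of the letters and not of a bound site. The stretches below were chosen among genes whose window held a match, so they do not show how common the element was. Many windows of the antiviral and MHC class I lists held none. The capitals mark the matches, which overlap each other in Isg15 and Oas1g. A match on the other strand reads TTTC, any 2 bases and TTTC. All are read 5′ to 3′ in the direction of the gene, from chr5:120887614-120887650 (minus strand, Oas1g), chr3:142620579-142620638 (plus, Gbp2), chr11:58199497-58199555 (plus, Igtp), chr11:58214888-58214947 (plus, Irgm2), chr4:156200850-156200909 (minus, Isg15), chr19:34583382-34583441 (plus, Ifit3) and chr17:36042899-36042958 (minus, H2-T22).
Oas1g: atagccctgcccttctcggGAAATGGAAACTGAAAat
Gbp2: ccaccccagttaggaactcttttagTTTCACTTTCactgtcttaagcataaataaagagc
Igtp: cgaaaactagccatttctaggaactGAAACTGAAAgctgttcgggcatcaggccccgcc
Irgm2: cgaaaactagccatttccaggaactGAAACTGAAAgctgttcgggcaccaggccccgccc
Isg15: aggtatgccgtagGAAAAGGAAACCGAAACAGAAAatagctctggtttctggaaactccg
Ifit3: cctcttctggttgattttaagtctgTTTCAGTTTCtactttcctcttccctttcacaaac
H2-T22: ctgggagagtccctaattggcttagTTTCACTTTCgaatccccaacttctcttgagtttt

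Igtp and Irgm2, neighbours on chromosome 11, shared 57 of the 59 bases compared here, the element included, and the signals of both were higher at 11 DAI (below). The STAT dimer motif TTCNNNGAA, searched in the same windows, stood in 9.32% of the windows of higher genes and 7.5% of those of lower genes, against 8.45% over all genes with a ratio, so its share was close to the background in both. Its letters can overlap those of the interferon element, and each motif was counted on its own. The motif of the B cell factor EBF, TCCC and GGGA with any 2 bases between them, which reads the same on both strands, was rare. It stood in 9 of 354 windows (2.54%) of higher genes and 6 of 400 (1.5%) of lower genes, against 1.23% over all genes with a ratio. The stretches of 2 B cell genes described below, from chr7:30879043-30879102 (minus strand, Cd22) and chr7:44836202-44836261 (plus, Il4i1), are shown with that motif in capitals.
Cd22: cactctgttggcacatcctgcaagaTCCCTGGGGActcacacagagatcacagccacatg
Il4i1: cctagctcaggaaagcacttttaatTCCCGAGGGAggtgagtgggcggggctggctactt

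Interferon-stimulated genes were higher at 11 DAI as a group. Of 56 antiviral genes with a probe, 48 had a ratio, and 36 of these were higher by 2-fold or more and none was lower, beside 5.22% and 6.11% of all genes. Their median ratio was 1.5, against 0.0017 over all genes, and 44 of the 48 had their highest signal of the 5 times at 11 DAI. In 30 the 11 DAI signal lay at least 2-fold above sham, 7 and 21 DAI alike. At 3 DAI this held for 6 of the 48. Over all 8479 genes these numbers were 172 at 11 DAI and 216 at 3 DAI. The difference between the 2 times was therefore for the most part a departure of 11 DAI from the rest.

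Among sensors and effectors, Oasl2, a member of the oligoadenylate synthetase family, had signals of 9454 at 11 DAI and 1079.6 at 3 DAI (3.13 on the log2 scale). Its signal at sham, 7 and 21 DAI was 264, 154 and 254, so that 3 DAI already stood above the other 3 arrays and 11 DAI far above all. Isg15, the ubiquitin-like modifier that is conjugated to proteins after interferon, showed 4911 at 11 DAI and 764 at 3 DAI (2.68). Usp18, the protease that removes Isg15, stood at 6792 at 11 DAI against 1234 at 3 DAI (2.46). The transcripts of modifier and protease were thus both higher at 11 DAI, and conjugated proteins were not measured. Ifit3, which binds foreign RNA together with related Ifit proteins, had 4595 at 11 DAI, 891 at 3 DAI and between 89.5 and 169 on the other 3 arrays (2.37). A second Ifit3 probe gave 1.41. For the transcription factors of the pathway, Irf7, which amplifies the interferon response, had 2339.6 at 11 DAI and 486 at 3 DAI (2.27). Stat2 had 714 at 11 DAI and 176 at 3 DAI (2.02), and Irf9, its partner, had 2657 at 11 DAI against 1234 at 3 DAI (1.11).

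Oas1g, another oligoadenylate synthetase, was the highest bound of all genes. It reached 6853 at 11 DAI but only -12.6 at 3 DAI, so the ratio was at least 6.74, and a second probe gave at least 5.72. Its course differed from that of the other antiviral genes, with 31.3 at sham but 1135 at 7 DAI and 1352 at 21 DAI. The Oas1 genes are near-identical copies, and cross-hybridisation between them was not tested. Rsad2, which encodes the antiviral protein viperin, was 9685 at 11 DAI and 2059 at 3 DAI (2.23), but its signals of 3587 at sham and 5944 at 7 DAI lay between these. A few antiviral genes stood outside the pattern. Ifi27, a mitochondrial protein gene, had 4537 at 11 DAI and 7641 at 3 DAI (-0.75), and Mndal, of the DNA sensor family of Ifi genes, had 467 at 11 DAI and 412 at 3 DAI (0.18). Mx1, an antiviral GTPase, was under the floor at 11 DAI (54.1) and just above it at 3 DAI (65.6). Lgals3bp, a secreted galectin ligand, stood above sham, 7 and 21 DAI at both times, with 5814 at 11 DAI and 3331 at 3 DAI against 616 to 718.

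Interferon-inducible GTPases, which attack the vacuoles of intracellular pathogens, moved further. With 11 members measured, 9 were higher and none lower, and the median ratio was 2.43. In all 9 the 11 DAI signal was at least 2-fold above sham, 7 and 21 DAI, while the 3 DAI signal was outside that range in none of the 11. Gbp2 had 5813 at 11 DAI and 647 at 3 DAI (3.17), and Gbp2b had 3583 at 11 DAI against 449.8 at 3 DAI (2.99). The immunity-related GTPases Igtp and Irgm2 had 7094 and 3365 at 11 DAI, against 987 and 534 at 3 DAI, ratios of 2.85 and 2.65. Tgtp1 was above the floor at 11 DAI only, with 309.7 against -8.91 at 3 DAI (at least 2.27). Gm12250, outside the list, behaved likewise, with 899 at 11 DAI and between 27.7 and 42.2 on the other 4 arrays (at least 3.81). For Irgm1 the probes differed. The brightest gave 25256 at 11 DAI and 22059 at 3 DAI (0.20), with its highest signal at sham (30451), whereas a second gave 2397 at 11 DAI and 478 at 3 DAI (2.33) and its other probe gave at least 0.91. Gbp2 and Gbp2b are close copies, as are Igtp and Irgm2 in part, so their values may share signal.

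The ligands gave no such picture. Ifnb1, Ifna2 and Ifna4, which encode type I interferons, were under the floor on both arrays, so no ratio was formed. Ifng, the type II interferon, was 34.2 at 11 DAI, under the floor, and 71.8 at 3 DAI, just above it. Of the 11 ligand, receptor and kinase genes with a ratio, 2 were higher and 1 lower, the median being -0.17. The lower one was Ifngr1, the ligand-binding chain of the interferon gamma receptor, at 769 at 11 DAI and 1806 at 3 DAI (-1.23), and the higher ones were Il12a and, by its brightest probe, Ifngr2, to which no direction is given since its probes conflict. Cxcl9, a chemokine induced by interferon gamma, was raised above the other 3 arrays at both times, with 474 at 11 DAI and 244 at 3 DAI (0.96), a difference under 2-fold. Cxcl10, a related chemokine, had 91.4 at 11 DAI against 149.7 at 3 DAI (-0.71).

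Genes for MHC class I presentation, which carry peptides to the cell surface for CD8 T cells, followed the interferon-stimulated genes. All 22 with a ratio had their highest signal of the 5 times at 11 DAI, 14 were at least 2-fold higher than at 3 DAI and none lower (median 1.46). H2-K1, a classical heavy chain, had 6971 at 11 DAI and 2011 at 3 DAI (1.79), and its 2 other probes gave 1.53 and 1.75. H2-T23, a non-classical heavy chain, had 16729.9 at 11 DAI and 4951 at 3 DAI (1.76). H2-Q7 had 2793 at 11 DAI against 443 at 3 DAI (2.65), and H2-T22, whose promoter is printed above, had 298 at 11 DAI and 74.6 at 3 DAI (3.99-fold). Class I heavy chains are near-identical copies, and their probes may not separate them. The genes around the heavy chains differed in size of change. Nlrc5, the transactivator of class I genes, had 1095 at 11 DAI and 218 at 3 DAI (2.33), and Tap1, a subunit of the peptide transporter, had 1199.6 at 11 DAI against 415 at 3 DAI (1.53). B2m, the light chain, was 38049 at 11 DAI and 27642 at 3 DAI, a ratio of only 0.46 that stood near the top of the scale, where the highest signal was 50747 at 11 DAI and 53224 at 3 DAI.

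MHC class II genes, which B cells and dendritic cells express, moved less. Of 12 with a ratio, 2 were higher, none was lower and the median was 0.34. Ciita, the class II transactivator, had 205 at 11 DAI and 68.1 at 3 DAI (1.59), and H2-Eb1 had 3843 at 11 DAI against 1817 at 3 DAI (1.08). Cd74, the invariant chain, stood at 11663 at 11 DAI and 5858 at 3 DAI (0.99), just inside 2-fold. None of the 12 had a signal at 11 DAI or 3 DAI outside the range of the other 3 arrays by 2-fold.

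B lymphocyte genes made up the other main group of higher genes. In mature B cells 15 of 22 genes with a ratio were higher and none lower, with a median of 2.02, and 18 of the 22 had their lowest signal of the 5 times at 3 DAI. The summed signal of the list was 55402 at 11 DAI and 12443 at 3 DAI, with 38129, 23173 and 46493 at sham, 7 and 21 DAI. The marrow at 3 DAI thus stood lowest and that at 11 DAI highest. Of the defining markers, Cd79b, the signalling chain of the B cell receptor, had 12155 at 11 DAI against 1721 at 3 DAI (2.82), and Ms4a1, which encodes CD20, had 236 at 11 DAI and -7.69 at 3 DAI (at least 1.88).

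Fcmr, the receptor for the Fc part of IgM, had the highest ratio of all genes above the floor on both arrays. It showed 9203 at 11 DAI and 439 at 3 DAI, a ratio of 4.39, with 3658 at sham, 488 at 7 DAI and 5388 at 21 DAI. It was low at 3 and 7 DAI alike. Cd72, an inhibitory co-receptor of B cells, had 6552 at 11 DAI and 434 at 3 DAI (3.92), and its sham signal of 5569.6 was close to that at 11 DAI. Cd22, another inhibitory co-receptor, had 931 at 11 DAI and 43.8 at 3 DAI (at least 3.86), and its second probe gave at least 2.77. Cd40, through which T cells help B cells, had 2971 at 11 DAI against 307 at 3 DAI (3.28, and 3.09 with its other probe). At sham it stood at 1056, between these. Tnfrsf13c, the BAFF receptor on which B cell survival depends, had 2082 at 11 DAI against 249 at 3 DAI (3.06). The kinase gene Blk had 2552 at 11 DAI and 289 at 3 DAI (3.14), and the Fc receptor-like gene Fcrla had 8766 at 11 DAI against 1090.3 at 3 DAI (3.01). Il4i1, an amino acid oxidase induced in B cells by interleukin 4, had 1475 at 11 DAI, 84.3 at 3 DAI and 41.2 at 7 DAI (4.13). Srpk3, a protein kinase gene, had 1704 at 11 DAI and 46.5 at 3 DAI (at least 4.73). Btk and Cd180, by contrast, were within 2-fold, at -0.20 and 0.07.

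Genes of B cell precursors did not all move the same way. Of 16 with a ratio, 10 were higher and 1 lower, the median being 1.77. Rag1, a subunit of the recombinase that assembles receptor genes, had 1095 at 11 DAI and 125 at 3 DAI (3.13), against 741 at sham, so it was low at 3 DAI alone. Vpreb3, a protein of pre-B cells, had 12425 at 11 DAI against 2112 at 3 DAI (2.56), and Foxo1, a transcription factor required in pro-B cells, had 493 at 11 DAI and 113 at 3 DAI (2.12). Some genes of the list differed from these. Dntt, the polymerase that adds bases at receptor gene joints, was lower, with 65.4 at 11 DAI and 227 at 3 DAI (-1.79). The surrogate light chain genes Vpreb1 and Igll1 had 1765 and 3425 at 11 DAI, against 2880.2 and 4445 at 3 DAI, ratios of -0.71 and -0.38. All 3 genes had their highest signal at 7 DAI, of 374, 5927 and 11704. In this list 7 genes had a 3 DAI signal at least 2-fold below the other 3 arrays and 1, Ly6d, had an 11 DAI signal above them, at 3461 against 762 at 3 DAI (2.18).

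Several of the highest ratios belonged to genes outside the lists. Reln, the secreted protein reelin, had 1012 at 11 DAI and 69.6 at 3 DAI (3.86), Rapgefl1 had 1425 at 11 DAI against 107 at 3 DAI (3.74), and Cpm, a membrane carboxypeptidase, had 1725 at 11 DAI and 141 at 3 DAI (3.61). In these 3 the 3 DAI signal was the one outside the range of the others, as in Cd72 and Blk. Prok2, a secreted chemotactic peptide, had instead a signal of 936 at 11 DAI that stood above all others, against 98.4 at 3 DAI (3.25). Scd1, the desaturase that makes monounsaturated fatty acids and a member of the fat cell list, also peaked at 11 DAI, at 2996 against 306 at 3 DAI and 1442 at sham (3.29).

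**Figure D2:**
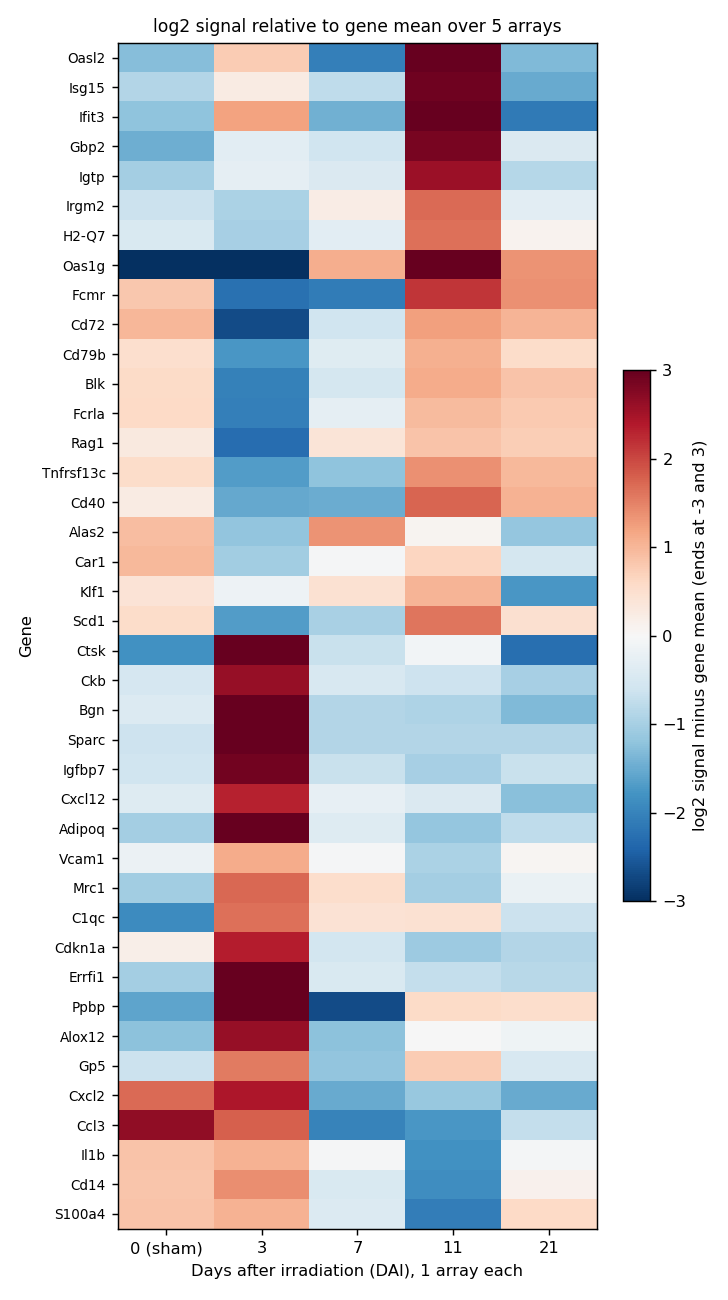
Signals of 40 genes on the 5 arrays, each as log2 signal minus the mean of that gene over the arrays, with signals under 64 set to 64 and colours ending at -3 and 3. Interferon genes at the top are darkest red at 11 DAI, B cell genes are darkest blue at 3 DAI, and matrix and macrophage genes are red at 3 DAI.

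T cell and NK cell lists did not follow the B cell lists. Of 12 T cell genes 1 was higher (8.33%, beside 5.22% of all genes) and 2 were lower (16.7%, beside 6.11%), with a median of -0.30. Cd3d, a chain of the T cell receptor complex, had 1129 at 11 DAI and 3044 at 3 DAI (-1.43), whereas Cd3e, of the same complex, had 87.8 at 11 DAI against 156 at 3 DAI (-0.83, and -1.23 with its other probe), low signals on both arrays, and Cd2 had 705 at 11 DAI and 285 at 3 DAI (1.31). Among 13 NK and cytotoxic genes 4 were higher (30.8%, beside 5.22% of all genes), none was lower and the median was 0.17. In 7 of them 11 DAI stood at least 2-fold above sham, 7 and 21 DAI, and in 3 so did 3 DAI. Over all 8479 genes these numbers were 172 and 216. Ncr1, the NK receptor NKp46, had 142 at 11 DAI against 48.6 at 3 DAI (at least 1.15), and Prf1, perforin, had 10771 at 11 DAI and 3546 at 3 DAI (1.60) with its highest signal at sham (18139.9). T and NK cells make interferon gamma, and the part of these genes in the interferon result was not tested.

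Erythroid genes were higher at 11 DAI in smaller steps. Of 38 with a ratio 16 were higher and none lower, the median being 0.83, and in none did the 11 DAI or the 3 DAI signal fall outside the range of the other 3 arrays by 2-fold. Car1, a carbonic anhydrase of early erythroid cells, had 4454 at 11 DAI against 1375 at 3 DAI (1.70). Alas2, the rate-limiting enzyme of heme synthesis in red cells, had 4775 at 11 DAI and 1981 at 3 DAI (1.27), but 11478 at 7 DAI and 2022 at 21 DAI. Gfi1b, a transcription factor of the lineage, had 1304 at 11 DAI and 544 at 3 DAI (1.26), and Klf1, which activates the globin genes, had 4050.1 at 11 DAI against 1779.9 at 3 DAI (1.19). The globin genes Hba-a1, Hbb-bs and Hbb-bt had ratios of -0.09, 0.02 and 0.00, with signals of 43922 to 44705 at 11 DAI that approached the highest on the array. Other probes of Hbb-bs gave 0.11 to 0.45 and those of Hbb-bt 0.005 to 1.30, the highest from a dimmer Hbb-bt probe at 1562 at 11 DAI and 635 at 3 DAI. Tal1, a factor of erythroid and stem cells that the study discusses, had 962 at 11 DAI and 432 at 3 DAI (1.16), with 658 at sham.

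Stem and progenitor genes as a list hardly moved. Of 15 with a ratio 2 were higher (13.3%, beside 5.22% of all genes), none was lower and the median was 0.21. The higher ones were Tal1 and Sox4, which the erythroid and the B cell precursor lists also hold. Kit, the stem cell factor receptor, had 669 at 11 DAI and 1047 at 3 DAI (-0.65), and Gata2 had 619 at 11 DAI against 1029 at 3 DAI (-0.73). No gene of DNA replication or mitosis was called among 37 with a ratio, with a median of -0.21 and a range of -0.72 to 0.73. The housekeeping genes (12, median -0.02) and cytosolic ribosomal protein genes (55, median 0.05) had no call either.

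By the brightest probe of each gene, neutrophil genes separated early from late stages only weakly. In the 14 genes of primary granules and progenitors the median was -0.59, 2 were lower, none was higher, and 8 had their lowest signal of the 5 times at 11 DAI. Fcnb, a ficolin of young neutrophils, had 4340.4 at 11 DAI and 15517 at 3 DAI (-1.84). In the 31 genes of later granules and maturation the median was -0.03, 13 had their lowest signal at 11 DAI, and 1 was called. That gene was Trem1, an activating receptor, at 409.7 at 11 DAI and 1222 at 3 DAI (-1.58). Lcn2 and Ngp, which are abundant in secondary granules, had 50065 and 46339 at 11 DAI and 51076 and 47153 at 3 DAI, close to the highest signals on the arrays.

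**Figure D3:**
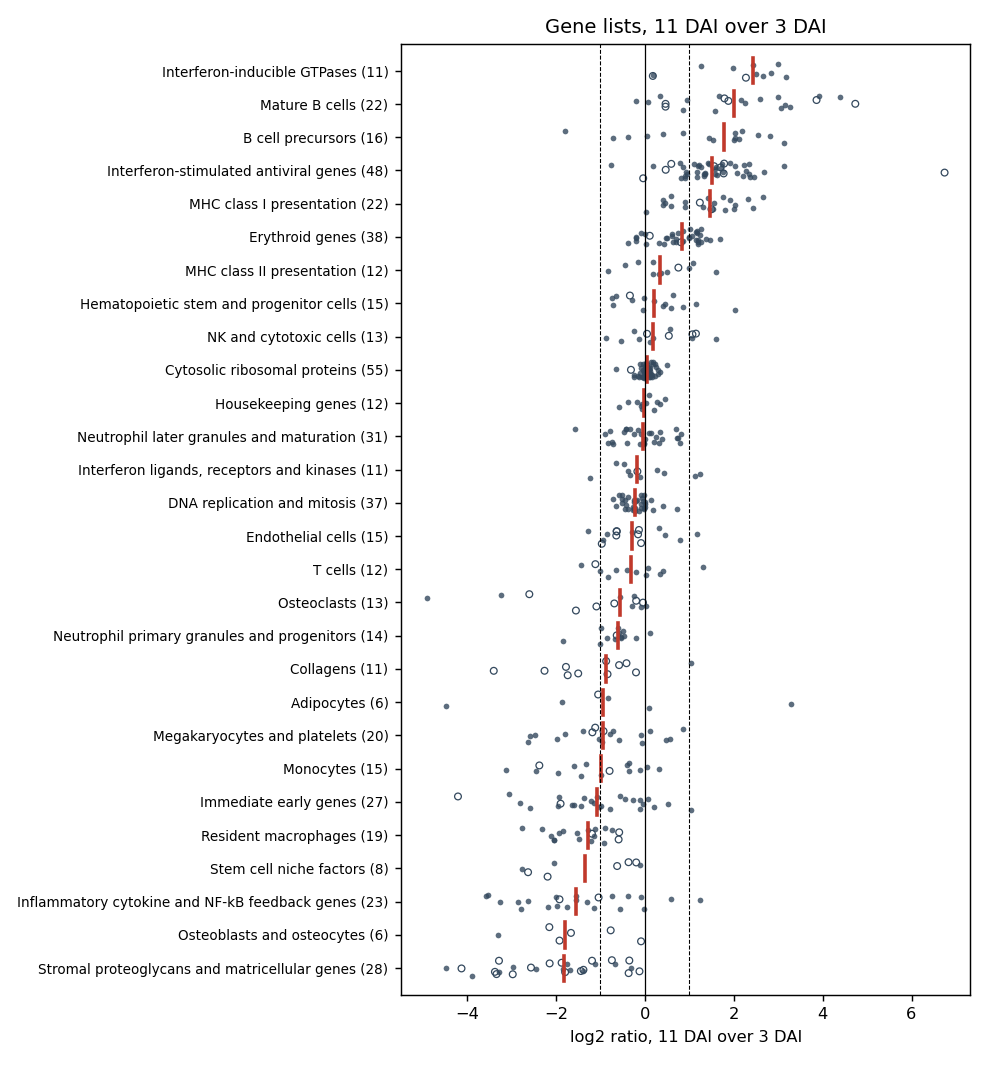
log2 ratio, 11 DAI over 3 DAI, of every gene with a ratio in 28 lists, sorted by the list median (red bars), with bounds as open circles and dashed lines at 2-fold. Numbers in brackets are genes with a ratio. Lists of interferon-stimulated genes, interferon-inducible GTPases and B cells lie to the right of 0, ribosomal and housekeeping lists near 0, and stromal, inflammatory and macrophage lists to the left. The list of interferon ligands, receptors and kinases has its median slightly to the left (-0.17).

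Some osteoclast genes and many stromal genes were among those with the lowest ratios. Ctsk, the collagen-degrading protease of osteoclasts, had the lowest ratio of all genes above the floor on both arrays, with 289.5 at 11 DAI and 8628 at 3 DAI (-4.90, or 29.8-fold lower). At sham, 7 and 21 DAI it stood at 87, 192 and 5.98, so the 3 DAI array alone was far from the others. Ckb, a creatine kinase that osteoclasts express, had 686 at 11 DAI against 6457 at 3 DAI (-3.23). Oscar and Slc9b2, both osteoclast genes, were under the floor at 11 DAI and at 187 and 387 at 3 DAI (at most -1.55 and -2.60). Of 13 osteoclast genes with a ratio 5 were lower (38.5%, beside 6.11% of all genes) and none was higher. The other 8 were within 2-fold. The median of the list was -0.55, and -0.28 over its members above the floor on both arrays. The low ratios were thus those of some members and not of the list.

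In the stromal list of proteoglycans and matricellular proteins 22 of 28 genes with a ratio were lower and none was higher, beside 6.11% and 5.22% of all genes, with a median of -1.82. Here 26 of the 28 had their highest signal at 3 DAI. In 20 that signal was at least 2-fold above sham, 7 and 21 DAI, beside 216 of all 8479 genes. In 16 of the 28 the ratio is a bound, since the 11 DAI signal was under the floor. Bgn, the small proteoglycan biglycan, had 84.2 at 11 DAI and 1874 at 3 DAI (-4.48). Sparc, the collagen-binding glycoprotein osteonectin, had 34 at 11 DAI and 1115 at 3 DAI (at most -4.12), with 2 other probes at most -2.24 and -2.92. Igfbp7, an IGF-binding protein, had 256 at 11 DAI against 3798 at 3 DAI (-3.89) and Igfbp5 had 205 at 11 DAI and 1615 at 3 DAI (-2.98), both with signals at sham, 7 and 21 DAI within 2-fold of those at 11 DAI. Tnc, tenascin C, had 109 at 11 DAI against 1061 at 3 DAI (-3.29). Serpinh1, the chaperone of collagen, had 53.5 at 11 DAI and 662 at 3 DAI (at most -3.37). Timp3, an inhibitor of metalloproteinases, was within 2-fold and stood above the other arrays at both times, at 269 at 11 DAI and 335 at 3 DAI against at most 85.8 (-0.32).

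Fn1, fibronectin, followed another course. It had 195 at 11 DAI and 1061 at 3 DAI (-2.44), with 1248, 1237 and 1572 at sham, 7 and 21 DAI, so that 11 DAI was the array outside the range. Acta2, the actin of smooth muscle, had 541 at 11 DAI and 2011 at 3 DAI (-1.89), again lowest at 11 DAI, whereas Myl9, a myosin light chain of smooth muscle, was above the floor at 3 DAI only, with 23.8 at 11 DAI and 387 at 3 DAI.

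Collagen genes were near the limit of detection. Of 11 with a ratio 10 were under the floor at 11 DAI, and 5 were lower and 1 was higher. Col6a1 had 63.4 at 11 DAI and 674 at 3 DAI (at most -3.40), Col4a1 of basement membranes had 37.3 at 11 DAI and 306 at 3 DAI (at most -2.26), and Col1a1 of bone had -0.195 at 11 DAI against 213 at 3 DAI (at most -1.73). The higher one was Col5a1, with 1052 at 11 DAI and 511 at 3 DAI (1.04), above the floor on all 5 arrays. Among 6 osteoblast genes, 4 were lower. Bglap2, an osteocalcin gene, had 72 at 11 DAI against 709 at 3 DAI (-3.30), and Sp7, the osteoblast transcription factor osterix, had -3.15 at 11 DAI and 202 at 3 DAI (at most -1.66). The osteocalcin genes are near-identical copies.

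Niche factors that hold stem cells and B cell precursors in the marrow were lower in 4 of 8 genes. This share was 50%, beside 6.11% of all genes, and the median was -1.33. Cxcl12, the main retention chemokine, had 1209.8 at 11 DAI and 8167 at 3 DAI (-2.75), with 1252 at sham, 1382 at 7 DAI and 687 at 21 DAI, and its 3 other probes gave lower signals at 11 DAI too (-3.51, at most -3.36 and at most -0.65). Cxcl14 and Ebf3, both of stromal reticular cells, were under the floor at 11 DAI and at 395 and 291 at 3 DAI (at most -2.63 and -2.19). Il7, the growth factor of B cell precursors, was above the floor at 3 DAI only, at 98.5 (at most -0.62), and Kitl was under the floor on all arrays. Of 6 fat cell genes with a ratio 3 were lower (50%, beside 6.11% of all genes), with a median of -0.94. Scd1 (3.29) was the 1 higher gene (16.7%, beside 5.22%). Adipoq, the fat cell hormone adiponectin, had 80.5 at 11 DAI and 1788 at 3 DAI (-4.47), and 89 to 138 on the other arrays. Lpl, lipoprotein lipase, had 660.2 at 11 DAI against 2399 at 3 DAI (-1.86). Endothelial genes stood apart from these, with 1 of 15 higher, 1 lower and a median of -0.30. Of the 15, 11 had their highest signal at 3 DAI, a count given without a share over all genes. Cartilage genes were all under the floor on both arrays.

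Gas6, a ligand of receptors for dying cells, had 70.2 at 11 DAI and 946 at 3 DAI (-3.75). Its receptor Axl had 565 at 11 DAI and 2138 at 3 DAI (-1.92), also highest at 3 DAI. Gja1, the gap junction protein connexin 43, had 513 at 11 DAI against 3723 at 3 DAI (-2.86). Errfi1, a feedback inhibitor of the EGF receptor, had 134 at 11 DAI and 1764 at 3 DAI (-3.72). In all 4 the 3 DAI signal alone was above the range of sham, 7 and 21 DAI.

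Resident macrophage genes were lower at 11 DAI in 14 of 19 with a ratio and higher in none, with a median of -1.28. Of the 19, 18 had their highest signal of the 5 times at 3 DAI. There 13 were at least 2-fold above the other 3 arrays, beside 216 of all 8479 genes. Mrc1, the mannose receptor, had 73.1 at 11 DAI and 492 at 3 DAI (-2.75). Vcam1, the adhesion molecule of erythroblastic island macrophages and stroma, had 1126 at 11 DAI against 4653 at 3 DAI (-2.05). Fcna, a macrophage ficolin, had 339 at 11 DAI and 1681 at 3 DAI (-2.31). Hmox1, which breaks down heme, had 98.8 at 11 DAI against 426 at 3 DAI (-2.11). The complement genes C1qa, C1qb and C1qc, which mark these cells, had smaller ratios of -1.28, -0.89 and -1.21 and were still above sham at 11 DAI, with C1qc at 339.6 at 11 DAI and 67.6 at sham.

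Monocyte genes were lower in 7 of 15, with none higher and a median of -0.99, but in another way. In 6 of the 15 it was the 11 DAI signal that lay below sham, 7 and 21 DAI, and in none did 3 DAI lie above them. Over all 8479 genes these numbers were 174 and 216. S100a4, a calcium-binding protein of monocytes, had 119.8 at 11 DAI and 1042 at 3 DAI (-3.12), with 904 at sham. Cx3cr1, the fractalkine receptor of patrolling monocytes, had 36.1 at 11 DAI and 331 at 3 DAI (at most -2.37). Cd300a had 69.6 at 11 DAI against 271 at 3 DAI (-1.96), and Csf1r, the receptor for macrophage growth factor, had 562 at 11 DAI and 1400.5 at 3 DAI (-1.32). Macrophage and monocyte genes were thus both lower at 11 DAI, the macrophage genes through a high 3 DAI array and the monocyte genes through a low 11 DAI array. Lyz1 and Lyz2, the lysozymes shared by monocytes and neutrophils, were within 2-fold by their brightest probes (0.06 and -0.36), which were high on the scale. The dimmer probes of Lyz1 gave -1.55 and -1.36, and those of Lyz2 gave -0.98 and -0.29.

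Platelet and megakaryocyte genes were lower in 9 of 20 genes (45%, beside 6.11% of all genes) and higher in none, with a median of -0.94. In 12 the highest signal was at 3 DAI, a count that cannot be read as many or few without a share over all genes. Alox12, the platelet lipoxygenase, had 149.9 at 11 DAI and 919 at 3 DAI (-2.62). Ppbp, a platelet chemokine, had 613 at 11 DAI against 3669.9 at 3 DAI (-2.58), and Tubb1, the tubulin of platelets, had 142 at 11 DAI and 791 at 3 DAI (-2.47). At 11 DAI these 3 were near their signals at 21 DAI (138, 591 and 146). The defining markers Pf4 and Itga2b did not follow them, with 4228 and 275 at 11 DAI and 4471 and 253 at 3 DAI (-0.08 and 0.12). Both stood above sham, 7 and 21 DAI at both times.

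Inflammatory cytokine genes and their NF-kB feedback genes were lower in 16 of 23, with 1 higher and a median of -1.56. Cxcl2, a neutrophil-attracting chemokine, had 82.7 at 11 DAI and 976 at 3 DAI, a ratio of -3.56 that its second probe matched at -3.57. Ccl3, a chemokine that restrains stem cell division, had 302 at 11 DAI against 3499.6 at 3 DAI (-3.53), Il1b, interleukin 1 beta, had 637 at 11 DAI and 4605 at 3 DAI (-2.85), and Tnf had 109.8 at 11 DAI against 495 at 3 DAI (-2.17). Cd14, the co-receptor for endotoxin, had 167 at 11 DAI and 1597 at 3 DAI (-3.26). At 3 DAI these signals were not out of range, since sham held 589 for Cxcl2, 6409 for Ccl3, 4088 for Il1b and 512 for Tnf. In 4 of the 23 genes, Cd14, Il1b, Tnf and Il1rn, the 11 DAI signal lay at least 2-fold below all 3 of the other arrays. Exceptions were Sod2 and Icam1, within 2-fold at -0.08 and -0.38, and Bcl3, which was higher at 310.0 at 11 DAI against 132 at 3 DAI (1.24). Cxcl1 and Il6 were above the floor at 3 DAI only, at 242 and 132.

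Immediate early genes, which handling of cells can switch on within minutes, moved with the cytokine genes. Of 27 with a ratio 15 were lower and 1 was higher, with a median of -1.08. Their summed signal was 42110 at 11 DAI and 116057 at 3 DAI, with 238773, 55534 and 56374 at sham, 7 and 21 DAI. The order of the arrays was thus sham, 3 DAI and then the 3 later times. Atf3, a stress-induced transcription factor, had 23.9 at 11 DAI and 1178 at 3 DAI (at most -4.20), Rgs1, which dampens G protein signals, had 145 at 11 DAI and 1207 at 3 DAI (-3.05), and Fosb had 466 at 11 DAI against 3277 at 3 DAI (-2.81). Dusp1, a phosphatase that ends MAP kinase signals, had 4169.6 at 11 DAI and 24802 at 3 DAI (-2.57), and Klf4, discussed by the study, had 320.3 at 11 DAI against 969 at 3 DAI (-1.60). Jun was lower (-1.13), while Junb was within 2-fold (-0.56). The part of these genes in the lower cytokine signals was not tested.

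Targets of the p53 protein, which radiation activates, were lower more often than higher. Of 22 with a ratio 7 were lower (31.8%, beside 6.11% of all genes) and 2 were higher (9.09%, beside 5.22%), with a median of -0.34. Cdkn1a, the cell cycle inhibitor p21, had 246 at 11 DAI and 2669 at 3 DAI (-3.44), against 584 at sham, and its other probes gave at most -3.34 and at most -2.26. Bbc3, the death-promoting protein Puma, had 98.4 at 11 DAI and 599 at 3 DAI (-2.61), and Phlda3, an inhibitor of Akt signalling, was 45.2 at 11 DAI against 189.8 at 3 DAI (at most -1.57). Ccng1 and Mdm2, both direct targets, had ratios of -0.12 and -0.23. The highest ratio of the p53 list was 1.54. Bmf, a death-promoting gene outside that list, was the single called gene at which both arrays lay outside the range of the other 3, in opposite directions. It had 402 at 11 DAI and 53 at 3 DAI, under the floor, against 179, 189 and 197 at sham, 21 and 7 DAI (at least 2.65).

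Over all called genes, the array that stood apart differed by direction. Of the 443 higher genes, the 11 DAI signal alone was at least 2-fold outside the range of sham, 7 and 21 DAI in 103 and the 3 DAI signal alone in 61. For the 518 lower genes these numbers were 102 and 157. Both arrays lay above that range in 6 higher genes, among them Oasl2, Usp18 and Ifit3, and in 1 lower gene, the matrix metalloproteinase gene Mmp14. They lay on opposite sides of it in Bmf alone. In 272 higher and 258 lower genes neither was outside. Oas1g, Gbp2 and Gm12250 were among the 103, and Cd72, Blk and Rag1 among the 61. Acot1, an acyl-CoA thioesterase gene with 231 at 11 DAI and 2441 at 3 DAI (-3.40), S100a4 and Il1b were among the 102, and Ctsk, Bgn and Adipoq among the 157.

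**Figure D4:**
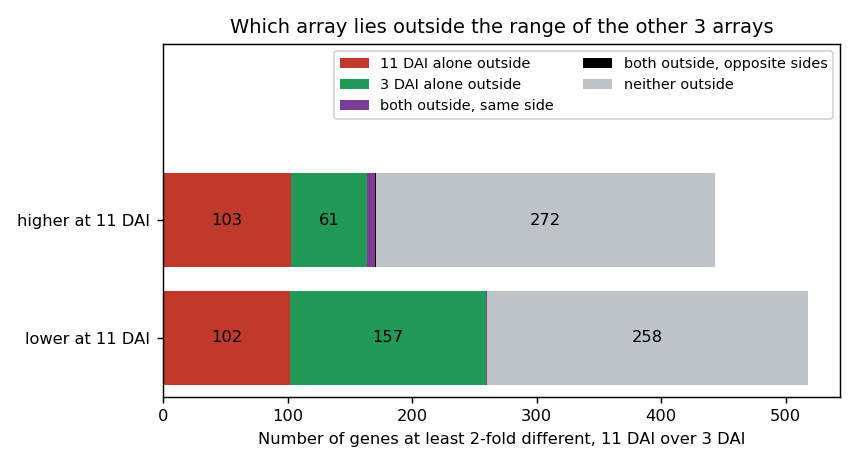
Number of genes at least 2-fold higher (443) or lower (518) at 11 DAI, split by which of the 2 arrays lay at least 2-fold outside the range of the sham, 7 and 21 DAI arrays. The higher genes hold 103 with 11 DAI alone outside and 61 with 3 DAI alone outside, and the lower genes hold 102 and 157.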

How the data were processed

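The values analysed were the deposited signal intensities of Illumina MouseWG-6 BeadChips, which the authors background-subtracted and scaled by average normalization in GenomeStudio (version 2010.2, per the submitters' processing notes), on a linear scale. The mean was 535.7 on every array, so no further scaling was applied, and signals below background were kept as negative values in the file. Arrays were grouped by their titles, 1 per time, and the precision of each value is limited by that number. Signals without normalization, in a separate table of 10 columns with detection p-values, were left out, because no label ties those columns to samples.

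Of 45281 probes, 34885 carried 1 gene symbol, 18 several and 10378 were not listed in the platform annotation. The last 2 groups were left out, and genes without a probe are named as not analysed here. RefSeq held the Entrez identifiers of 18992 of the 19057 genes. Signals under 64 were set to 64, the log2 ratio of 11 DAI over 3 DAI was taken and genes were called from an absolute ratio of 1 upwards. There was no model and no p-value. The call by size was tested on simulated data with a preset noise and without differences between animals. That test does not tell how often a call between 2 single arrays is false. No such test is reported for the floor and bound rules. Promoter sequences were those of RefSeq, and 354 of the higher and 400 of the lower genes had one.

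The comparison, the gene lists and the genes named were chosen with earlier results of these data known. The genes named were drawn from the 20 highest and 20 lowest ratios and the 5 highest and lowest bounds. Others came from the 5 highest, lowest and brightest genes of each list and from genes that the paper names. Not every gene of these sets is described, and the choice among them followed no fixed rule. C1qa, C1qc, Csf1r, Cxcl1, Ifng, Il6, Irf7, Irf9, Klf1, Lgals3bp, Ms4a1 and Stat2 were added after their values were seen. Histone genes were matched by a pattern set after the symbols of the annotation were seen. Alternatives were quantile normalization, median scaling, floors of 32 and 100, a pseudocount of 50, other rules for choosing probes, only genes above the floor on both arrays, and other sizes of call. Computations ran in Python 3.11.15 with numpy 2.4.6 and pandas 2.3.3, and figures were drawn with matplotlib 3.10.9.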

Additional observations from a re-analysis of the deposited data

How the results depend on the processing

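Of 224 list medians (28 lists under 8 alternatives), 193 stayed within 0.195 of the value given, the median spread between probes of a gene, 31 moved by more and 3 changed sign (stem and progenitor cells, endothelium and collagens, in 1 alternative each). The medians under the alternatives that moved them were as follows. With a floor of 100 they were 2.01 for B cell precursors, 0.42 for stem and progenitor cells, -1.27 for osteoblasts, -0.62 for adipocytes, -1.98 for niche factors and -0.71 for megakaryocytes. With a floor of 32 they were 1.54 for B cell precursors, 2.34 for mature B cells, 0.46 for NK cells, -0.047 for stem and progenitor cells, -2.19 for stromal genes, -1.85 for collagens, -1.99 for osteoblasts, -1.19 for osteoclasts, -0.83 for endothelium, -0.87 for niche factors, -1.55 for macrophages and -1.32 for monocytes. With a pseudocount of 50 they were 1.56 for B cell precursors, -1.72 for collagens, -0.91 for osteoclasts, -0.63 for endothelium and -1.78 for niche factors. The mean over probes gave 1.99 for GTPases and -1.13 for niche factors. Only genes above the floor on both arrays gave 1.04 for collagens and -3.30 for osteoblasts (1 gene each), -0.28 for osteoclasts, 0.015 for endothelium, -2.05 for niche factors and -1.5 for macrophages. A size of 3-fold left 160 higher and 201 lower genes, and 1.5-fold gave 1058 and 1216. With a distance of 1.5-fold, 11 DAI was above the range in 180 higher genes and below it in 187 lower genes, and 3 DAI was below it in 116 higher genes. At 3-fold, the interferon element stood in 20.8% of higher genes' windows, and the EBF motif in 6.67% of those of higher and 0.654% of those of lower genes. Each of the 50 genes with the most extreme ratios and bounds stayed called in the same direction under every alternative that gave it a value. These genes were picked for their size on the same 2 arrays, so this outcome was nearly fixed beforehand and lends them no support. For 10 of them, all bounds, the restriction to genes above the floor on both arrays gave none. No paired analysis was possible because each group has 1 array. The floor decides the lists made mostly of bounds, the stromal, collagen and osteoblast lists above all, and a gene under it has no measured level. With 1 array per time, no alternative tells the spread between animals.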

Other observations

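Of 17 feedback genes of cytokine receptors and STAT5 with a ratio, 4 were lower at 11 DAI (23.5%, beside 6.11% of all genes) and none was higher, with a median of -0.81. Besides Errfi1 and Osm these were Socs2, at 223 at 11 DAI and 853 at 3 DAI (-1.94), and Cish, at 272 at 11 DAI and 741 at 3 DAI (-1.45). Both encode inhibitors that cytokine signals induce. Histone genes had shares no higher than those over all genes, with 3 of 51 lower (5.88%) and 1 higher. H1f2, a linker histone, had 3176 at 11 DAI and 14989.9 at 3 DAI (-2.24), and H2bc4 had 451 at 11 DAI against 2289 at 3 DAI (-2.34), while the replication genes gave no call. The higher one was H2ac6 (195 at 11 DAI, 67.9 at 3 DAI). Of 15 heat shock genes 1 was higher (6.67%, beside 5.22% of all genes). That was Hsph1, a large chaperone, at 2721 at 11 DAI and 998 at 3 DAI (1.45).

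Grb7, an adaptor of growth factor receptors, was among the lowest ratios, with 70.6 at 11 DAI and 530.3 at 3 DAI (-2.91), but its highest signal was at 7 DAI (879.8), and sham and 21 DAI were under the floor.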
